A study of Ovis aries with 9 samples.

Results

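Breakdown of the branched-chain amino acids leucine, isoleucine and valine was followed in sheep liver cells through 10 genes, picked by name from the 28837 named genes of the count table. All 10 were present, and all 10 passed the filter on low counts. They encode the 4 subunits of the branched-chain keto acid dehydrogenase complex (BCKDHA, BCKDHB, DBT and DLD), the kinase and the phosphatase that act on it (BCKDK and PPM1K), and 4 proteins of later steps (IVD, MCCC1 and MCCC2 for leucine, HIBADH for valine). The cells were hepatocytes of female sheep (Ovis aries), obtained by collagenase digestion of livers from slaughtered animals and picked by hand. Each cell was read with Smart-seq3xpress, a plate method with a library per cell. The samples were 1 of virgin sheep, 6 of gestation (days 40 to 50, 50 to 70, 70 to 80, 90 to 100, 100 to 120 and 140 to 150) and 2 of lactation (days 7 and 15 after birth).

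The 3 amino acids first lose their amino group, which leaves branched-chain keto acids. In most mammals this happens mainly outside the liver, and the liver takes up the keto acids and oxidizes them. The dehydrogenase complex, in the mitochondrion, carries out the committed step: its E1 part, made of BCKDHA and BCKDHB, removes carbon dioxide, its E2 core, DBT, passes the acyl group to coenzyme A, and its E3 part, DLD, restores the lipoate arm. BCKDK switches the complex off by phosphorylating BCKDHA, and PPM1K removes that phosphate and switches it on. Leucine carbon then passes through IVD, the isovaleryl-CoA dehydrogenase, and the biotin enzyme methylcrotonyl-CoA carboxylase, whose alpha and beta subunits are MCCC1 and MCCC2, while valine carbon passes through HIBADH, the 3-hydroxyisobutyrate dehydrogenase.

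The table held 3404 cells, from 246 at day 7 of lactation to 553 at day 15, and samples had 114865665 to 272944124 reads on named genes, with a median of 374832 to 469964 per cell. No cell had the same counts as another. The labels name no separate animals and give 1 sample per stage, and any p therefore reflects only how far stages of a phase differ, which may be technical in part. Levels of samples are CPM, counts scaled to a common library size with TMM factors. They are relative levels, neither plain shares of the sample's reads nor amounts per cell. The factors shift the comparison of phases. Over all genes tested, the median log2 fold change in lactation over gestation was -0.01 with them and 0.18 by library size alone. The cells carried hepatocyte markers in every sample, with the 8 listed markers found in the table summing to 87875 CPM at day 7 and 67205 CPM at day 15 of lactation, 142157 to 176697 CPM in gestation and 141899 CPM in the virgin sample. Markers of other cells were far lower, but at day 7 of lactation those of lymphocytes summed to 26.2 CPM (2.66 to 17.1 CPM in gestation). Those of red cells summed to 223 CPM at day 7 (0.109 to 64.4 CPM in gestation). Macrophage markers summed to 26 and 9.93 CPM at days 7 and 15 of lactation, 14.9 to 36 CPM in gestation and 14.3 CPM in the virgin sample. Of the 5 macrophage markers present, CD68 alone was at 0, in all 9 samples.

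DBT, the E2 core of the complex, and PPM1K, its phosphatase, differed most between the phases: both were at lower levels in lactation than in gestation, 2.22-fold and 2.17-fold. DBT had 36.1 and 29 CPM at days 7 and 15 of lactation, against 51.9, 73.7 and 81.6 CPM as the lowest, median and highest of the 6 gestation samples. Every gestation sample was above both lactation samples, and the lowest of the 6 was the sample nearest to birth. DBT thus averaged 32.5 ± 5.01 CPM in lactation (SD, n = 2) and 72.1 ± 10.8 CPM in gestation (SD, n = 6). Its log2 fold change was -1.15 (SE 0.21), which did not pass over all genes in edgeR's quasi-likelihood test with Benjamini-Hochberg adjustment (adjusted p = 0.106) and did in DESeq2 (-1.17, SE 0.23, adjusted p = 0.000101).

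The partners of DBT in the complex differed less. BCKDHA, the E1 subunit that the kinase phosphorylates, had 21.3 and 19.8 CPM at days 7 and 15 of lactation, against a gestation range of 16.2 to 26.2 CPM (median 20.8). Its groups overlapped fully, with a log2 fold change of -0.00 (SE 0.20), a sign kept in 7 of 14 alternatives. BCKDHB, the other E1 subunit, had 85.2 and 73.9 CPM in lactation, against 83.8 to 122 CPM in gestation (median 106; log2 fold change -0.39, SE 0.18, edgeR adjusted p = 0.553). DLD, the E3 subunit, which pyruvate dehydrogenase and 2-oxoglutarate dehydrogenase also use, had 74.6 and 78.7 CPM in lactation and 71.8 to 101 CPM in gestation (log2 fold change -0.21, SE 0.16, edgeR adjusted p = 0.725). For BCKDHB the day 7 sample lay inside the gestation range, and for DLD both lactation samples did.

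**Figure D1:**
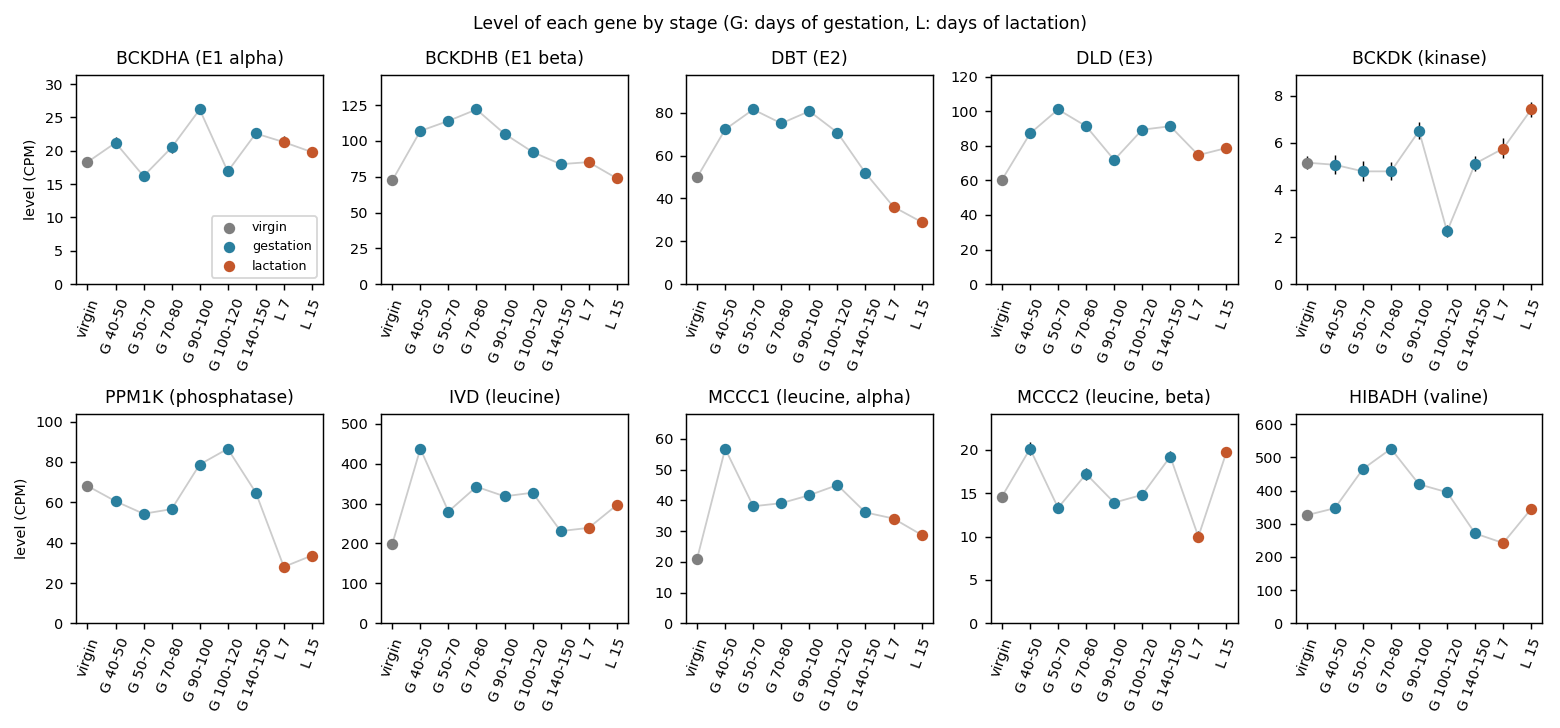
Level of each of the 10 genes (CPM, linear axis from 0) at each stage, in order of time, with 1 point per sample and bars for the exact Poisson 95% interval, which covers counting error only. DBT and PPM1K are lower in both lactation samples than in every gestation sample. MCCC1 is too, by a narrow margin that depends on the TMM factors (34.1 and 28.8 CPM against at least 36.1 CPM).

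PPM1K, the phosphatase that switches the complex on, had 28 and 33.6 CPM at days 7 and 15 of lactation, against 54.3, 62.6 and 86.5 CPM as the lowest, median and highest in gestation. The groups did not overlap, and the virgin sample, at 68.1 CPM, stood inside the gestation range. Its log2 fold change between lactation and gestation was -1.12 (SE 0.22). As for DBT, this missed the threshold in edgeR (adjusted p = 0.127) and passed it in DESeq2 (-1.14, SE 0.24, adjusted p = 0.000329). BCKDK, the kinase that switches the complex off, did not go the same way: it had 5.76 and 7.42 CPM in lactation, against 2.24, 4.93 and 6.51 CPM as the lowest, median and highest in gestation. Day 15 of lactation was the highest of all 9 samples for BCKDK and day 7 was inside the gestation range (log2 fold change 0.47, SE 0.33, edgeR adjusted p = 0.683). BCKDK is also the least covered of the 10 genes, with 358 to 2239 reads per sample. At days 90 to 100, 16.2% of its reads lay in 1 cell, without which the level was 5.46 CPM. The share in 1 cell was 11.7% at days 100 to 120 and 10.3% at days 70 to 80.

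Set against each other per length, BCKDK stood at 0.466 (95% interval 0.429 to 0.505) of the PPM1K level at day 7 of lactation and 0.5 (0.478 to 0.524) at day 15. In gestation the ratio was 0.189, 0.2, 0.191, 0.187, 0.0587 and 0.179, in order of day, and in the virgin sample it was 0.171. Both lactation samples were therefore above all others, while 5 gestation samples and the virgin sample lay between 0.171 and 0.2. The low value at days 100 to 120 came with the lowest BCKDK level and the highest PPM1K level of the 9 samples. Within the complex, DBT stood at 0.222 and 0.206 of BCKDHB per length at days 7 and 15 of lactation, against 0.322 to 0.403 in gestation and 0.362 in the virgin sample. These ratios were chosen after the levels were seen and carry no test. Their intervals cover counting error only and take the reads of 1 cell as independent.

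**Figure D2:**
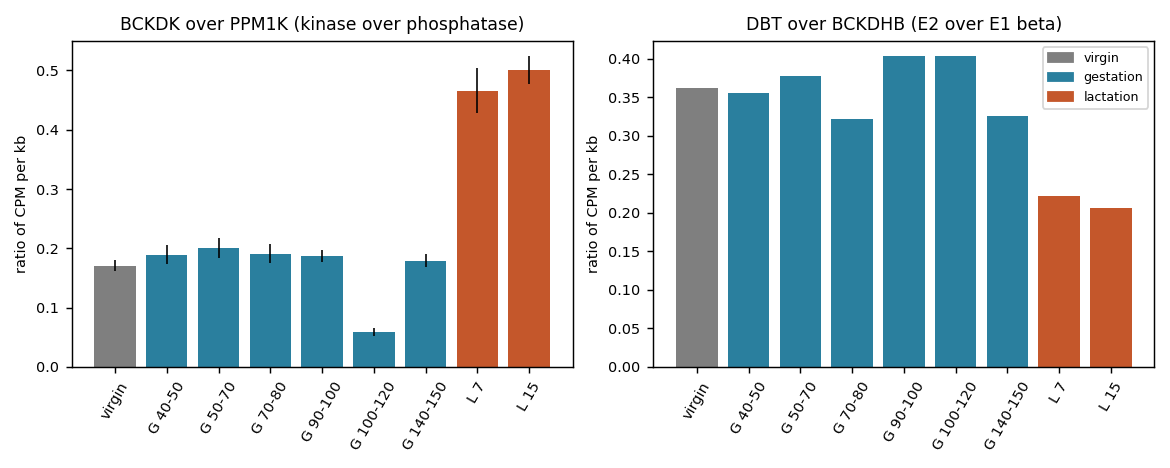
Ratio of CPM per kb of BCKDK to PPM1K (left, with exact binomial 95% intervals for counting error) and of DBT to BCKDHB (right) in each of the 9 samples, in order of time. The kinase to phosphatase ratio is 0.466 and 0.5 in lactation and at most 0.2 in gestation, and the DBT to BCKDHB ratio is 0.222 and 0.206 in lactation and at least 0.322 in gestation.

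The leucine enzymes after the complex had smaller differences between lactation and gestation. IVD had 239 and 296 CPM at days 7 and 15 of lactation, and 231, 322 and 437 CPM as the lowest, median and highest in gestation, so the groups overlapped (log2 fold change -0.27, SE 0.23, edgeR adjusted p = 0.755). MCCC1, the biotin-carrying alpha subunit, had 34.1 and 28.8 CPM in lactation, against 36.1, 40.4 and 56.8 CPM in gestation. With TMM scaling its groups just failed to overlap (log2 fold change -0.44, SE 0.20, edgeR adjusted p = 0.535). By library size alone they overlapped. MCCC2, the beta subunit of the same enzyme, had 9.98 CPM at day 7 of lactation and 19.7 CPM at day 15, which lie below and inside the gestation range of 13.3 to 20.1 CPM. At day 15, 14.2% of the MCCC2 reads lay in 1 cell, without which the level was 16.9 CPM. HIBADH, of valine breakdown, likewise had 242 CPM at day 7 and 345 CPM at day 15, below and inside its gestation range of 271 to 526 CPM (log2 fold change -0.46, SE 0.26, edgeR adjusted p = 0.618).

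Over the 10 genes, 0 were called between lactation and gestation at an adjusted p under 0.05 in edgeR, where 0.0592% of the 20263 genes tested were called (6 higher and 6 lower in lactation, 16 and 6 when scaled by library size alone, 168 and 355 in DESeq2). At an unadjusted p under 0.05, DBT and PPM1K were lower and 0 were higher, against 4.39% of all genes lower and 5.01% higher. DESeq2 called 2 of the 10, DBT and PPM1K, both as lower, against 2.58% of all genes in either direction and 1.75% as lower. Samples did not overlap and were lower in lactation for 3 of the 10 (DBT, PPM1K and MCCC1), against 4.86% of all genes, and for 0 of the 10 in the other direction, against 6.14%. The same 3 were left after the cell with most reads of the gene was removed from each stage. The separation of MCCC1 rests on the TMM factors. By library size alone, day 7 of lactation (4258 of 114865665 reads) exceeded days 140 to 150 of gestation (7203 of 204863071 reads). A negative fold change was found for 9 of the 10, against 51% of all genes, with a median log2 fold change of -0.33 over the 10 and -0.01 over all genes tested. Scaled by library size alone, 7 of 10 were negative, with medians of -0.14 over the 10 and 0.18 over all genes. Without day 7 of lactation, 8 of 10 were negative and the medians were -0.20 over the 10 and -0.07 over all genes, so the difference between the medians was -0.13, against -0.32 with all samples.

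The sum of the hepatocyte markers was also lower in lactation, as given above, and 7 of the 8 hepatocyte markers tested had a negative fold change (median log2 fold change -0.64). Periportal markers, of hepatocytes near the portal vein, were lower in 8 of 8 (median -1.01), with a sum of 5772 to 6406 CPM in lactation against 8746 to 11172 CPM in gestation. Pericentral markers, of hepatocytes near the central vein, were lower in 3 of 7 (median 0.26). Their sum was 6017 to 9324 CPM in lactation and 5738 to 10603 CPM in gestation. Neutrophil markers summed to 7.81 to 12 CPM in lactation and 0.858 to 2.49 CPM in gestation. The part of these differences in the values of the 10 genes was not tested. Without the cells that had reads of PTPRC, a gene of white blood cells, the log2 fold changes were -1.09 for DBT and -1.05 for PPM1K.

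**Figure D3:**
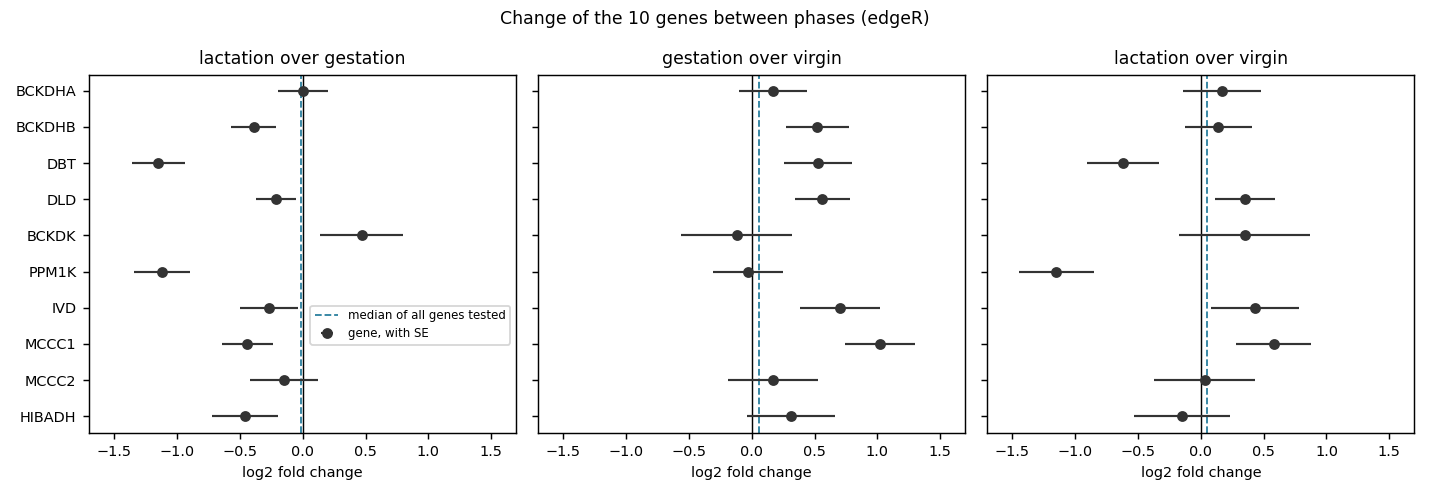
Log2 fold change (edgeR, points, with SE bars) of the 10 genes in lactation over gestation, gestation over virgin and lactation over virgin, with the median of all genes tested as a dashed line. DBT (-1.15) and PPM1K (-1.12) lie farthest to the left in the first panel and MCCC1 (1.02) farthest to the right in the next.

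Between gestation and the virgin sample, MCCC1 had the largest log2 fold change of the 10 genes and the smallest p. MCCC1 had 36.1 to 56.8 CPM in gestation and 21.1 CPM in the virgin sample, a log2 fold change of 1.02 (SE 0.28), with an edgeR adjusted p of 0.887. IVD had 231 to 437 CPM in gestation and 199 CPM in the virgin sample (0.70, SE 0.32). For both genes every gestation sample was above the virgin sample, and the highest of them was that of days 40 to 50. Every gestation sample was also above the virgin sample for BCKDHB, which stood at 104 ± 14.1 CPM in gestation (SD, n = 6) and 72.4 CPM in the virgin sample, for DLD at 88.6 ± 9.45 CPM in gestation and 60.3 CPM for virgin, and for DBT at 72.1 ± 10.8 CPM in gestation and 49.9 CPM for virgin. The highest gestation sample was that of days 70 to 80 for BCKDHB and of days 50 to 70 for DLD and DBT. The log2 fold changes of BCKDHB, DLD and DBT were 0.52 (SE 0.25), 0.56 (SE 0.22) and 0.53 (SE 0.27). DBT at days 140 to 150, at 51.9 CPM, was close to the virgin value. By library size alone that order was reversed, with 10351 of 204863071 reads at days 140 to 150 and 13850 of 261815503 for virgin.

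Thus, with TMM scaling, all gestation samples exceeded the virgin sample for 5 of the 10 genes, against 12.3% of all genes. DBT is among them only with that scaling. None of the gestation sets was below the virgin sample throughout, 0 of the 10, against 14.8%. A positive fold change was found for 8 of the 10, against 54.8% of all genes, with a median log2 fold change of 0.42 over the 10 and 0.06 over all genes tested. In edgeR 0 of the 10 were called, against 0.00494% of all genes (435 lower and 466 higher of 20263 at an unadjusted p under 0.05), and DESeq2 called 0 of the 10 and 0.563% of all genes. MCCC1 and DLD, 2 of the 10, were higher at an unadjusted p under 0.05, against 2.3% of all genes. BCKDK (-0.12, SE 0.44), PPM1K (-0.03, SE 0.28), BCKDHA (0.17, SE 0.27), MCCC2 (0.17, SE 0.36) and HIBADH (0.31, SE 0.35) had fold changes smaller than their SE. The virgin phase has a single library, whose spread was taken to equal that of the rest, so a feature of that library cannot be told apart from the phase.

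Between lactation and the virgin sample the 10 genes went different ways. PPM1K had 28 and 33.6 CPM in lactation, against 68.1 CPM for virgin (log2 fold change -1.15, SE 0.30, edgeR adjusted p = 0.875, DESeq2 adjusted p = 0.118). DBT had 36.1 and 29 CPM in lactation, against 49.9 CPM for virgin (-0.62, SE 0.29). MCCC1, in contrast, had 34.1 and 28.8 CPM in lactation, against 21.1 CPM for virgin (0.58, SE 0.30), and IVD had 239 and 296 CPM against 199 CPM (0.43, SE 0.35). Both lactation samples were below the virgin sample for DBT and PPM1K, 2 of 10, against 32.4% of all genes, and above it for BCKDHA, BCKDHB, DLD, BCKDK, IVD and MCCC1, 6 of 10, against 30.6%. A positive fold change was found for 7 of the 10, against 53.4% of all genes. In edgeR 0 of the 10 were called and 0% of all genes, while PPM1K alone was lower at an unadjusted p under 0.05, against 2.43%, and DESeq2 called 0 of the 10 and 0.474% of all genes. The mean DBT level was thus higher in gestation than in lactation or in the single virgin library, but DBT was not called against virgin in any fit. PPM1K in gestation (66.9 ± 12.9 CPM, SD, n = 6) was near the virgin level. These comparisons share samples with those above and are not separate evidence.

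Within gestation no member had a slope that passed the test over the 6 stages, where edgeR called 0.0336% of 17848 genes and DESeq2 0 of the 10 and 1.7% of all. The slope was negative for 7 of the 10, against 48.9% of all genes. IVD had the smallest p, its log2 level differing by -0.65 for each 100 days (SE 0.29, edgeR adjusted p = 0.778). Its level was 437 CPM at days 40 to 50, 280, 342, 318 and 327 CPM at the 4 stages after that, and 231 CPM at days 140 to 150. HIBADH was highest in the middle of gestation, with 347, 465, 526, 419, 395 and 271 CPM in order of day (slope -0.55, SE 0.37, and 0.06 without the sample of days 140 to 150). DBT had 72.3, 81.6, 75.1, 80.8, 70.8 and 51.9 CPM over the same stages, a plateau with a lower last value (slope -0.49, SE 0.26, and -0.05 without the sample of days 140 to 150). PPM1K had 60.5, 54.3, 56.6, 78.7, 86.5 and 64.8 CPM, with its 2 highest values at days 90 to 120 (slope 0.40, SE 0.31, and 0.96 without the sample of days 140 to 150). At days 90 to 100, 11.4% of the PPM1K reads lay in 1 cell, without which the level was 69.7 CPM.

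Across birth, from days 140 to 150 of gestation to day 7 of lactation, there is 1 sample on each side and no test, and intervals on ratios cover counting error only. PPM1K differed most, with 28 CPM at day 7 and 64.8 CPM at term (ratio 0.432, 95% interval 0.416 to 0.448). MCCC2 had 9.98 CPM at day 7 and 19.2 CPM at term (ratio 0.52, 0.487 to 0.554), and DBT had 36.1 CPM at day 7 and 51.9 CPM at term (ratio 0.695, 0.671 to 0.719). PPM1K and MCCC2, 2 of the 10, were at least 1.5-fold lower, against 11.6% of the 8326 genes of at least 5 CPM on average over both samples. The other 7 members were at 0.817 to 1.13 of their term level, with BCKDHB at 85.2 CPM at day 7 and 83.8 CPM at term, and IVD at 239 CPM at day 7 and 231 CPM at term. For DBT the term sample was already below all earlier gestation samples, whereas for PPM1K it was inside their range.

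Between day 15 and day 7 of lactation DBT and PPM1K differed in opposite directions, at a ratio of day 15 to day 7 of 0.804 (0.775 to 0.833) for DBT and 1.2 (1.15 to 1.25) for PPM1K. MCCC2 had 19.7 CPM at day 15 and 9.98 CPM at day 7 (1.97, 1.86 to 2.1), the one member that differed by at least 1.5-fold and higher, against 15.9% of 8317 genes. HIBADH had 345 CPM at day 15 and 242 CPM at day 7 (1.43, 1.41 to 1.44), and at day 7 5.62% of its reads lay in 1 cell. The 2 lactation samples thus shared their low DBT and PPM1K and differed in MCCC2 and HIBADH. The median log2 ratio of day 15 to day 7 was 0.17 over the 10 genes and 0.12 over all genes of at least 5 CPM on average.

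In single cells, thinned to 155164 reads each, IVD and HIBADH had reads in 99.6% to 100% of cells at every stage. DBT had reads in 83.1% of cells at day 7 (95% interval 77.6% to 87.8%) and 74.7% at day 15 of lactation (70.7% to 78.5%), against 84.7% to 96.6% in gestation and 90.4% in the virgin sample. Unthinned, the lactation shares were 83.7% and 75%, and the gestation shares 88.1% to 97.9%. The median cell had 32.2 and 19.3 CPM of DBT at days 7 and 15 of lactation, against 38.7 to 70.9 CPM in gestation. Among cells with DBT reads alone the mean was 48.1 and 44.5 CPM in lactation and 58.8 to 82.9 CPM in gestation. The share and this mean were thus both lower in lactation, but neither is separate evidence from the level. The interval of the day 7 share overlapped those of days 100 to 120 (80.4% to 88.4%) and 140 to 150 (82.4% to 89.2%).

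PPM1K had the same form, with reads in 59.1% of cells at day 7 (52.4% to 65.6%) and 71.9% at day 15 of lactation (67.7% to 75.8%), against 75.5% to 87.3% in gestation and 88.4% in the virgin sample. Unthinned, these were 64.6% and 74.7% in lactation and 79.4% to 89.6% in gestation. The interval of the thinned day 15 share overlapped that of days 40 to 50 of gestation (69.8% to 80.5%). The median cell had 12.9 and 25.8 CPM of PPM1K in lactation and 38.7 to 54.8 CPM in gestation. BCKDK was found in few cells at this depth, in 26.2% and 35.6% of cells in lactation, 10% to 27.7% in gestation and 28.5% in the virgin sample, and its median cell had 0 reads throughout. Reads of all 4 subunits of the complex were found together in 56.9% and 47.3% of cells in lactation, 34.4% to 77% in gestation and 55.3% in the virgin sample. Cells are not replicates, and these shares carry no test.

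**Figure D4:**
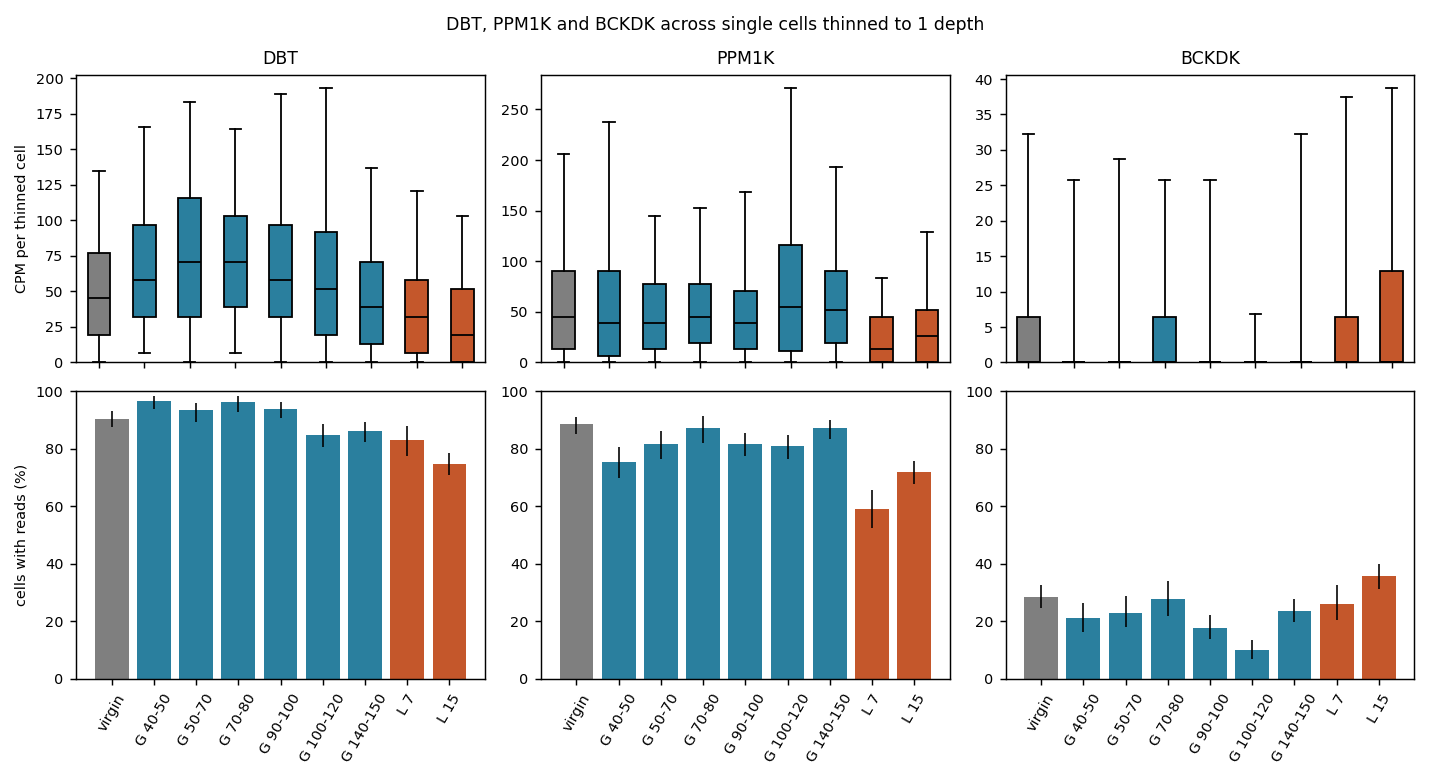
Cells thinned to 155164 reads, by stage in order of time. The upper row gives CPM per cell of DBT, PPM1K and BCKDK (box from the 25th to the 75th percentile with the median, whiskers from the 5th to the 95th), and the lower row the share of cells with reads, with exact 95% intervals for counting error. Medians of DBT (32.2 and 19.3 CPM) and PPM1K (12.9 and 25.8 CPM) in lactation lie below those of every gestation stage.

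From cell to cell the members hardly moved together. Over the 45 pairs, the median Spearman correlation across the cells of a stage ran from -0.02 to 0.11, and single values from -0.20 to 0.30. BCKDHA and BCKDHB, which form E1 together, had a median of 0.01, and MCCC1 and MCCC2, which form 1 carboxylase, 0.02. Values with markers of position in the lobule were also low: between each member and the mean of the pericentral or the periportal markers the median over the 9 stages ran from -0.03 to 0.13, with single values from -0.24 to 0.31, while the 2 marker sets ran against each other at -0.45. IVD with periportal markers, at 0.00 to 0.30, was the only combination of 20 with no negative value. The points of such a correlation are cells with few reads of most members, so weak values are no finding.

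Across the 9 samples some pairs of members had larger correlations, picked here from 45 pairs with no background over other genes. The Pearson correlation of log2 CPM was 0.84 for IVD and MCCC1 (Spearman 0.83) and 0.81 for BCKDHB and DBT (Spearman 0.83). It was 0.76 for DBT and PPM1K (Spearman 0.30) and -0.55 for BCKDK and PPM1K (Spearman -0.30). MCCC2, the other subunit of the carboxylase, had 0.41 with IVD and 0.19 with MCCC1. For BCKDHA the Pearson correlation was 0.05 with BCKDHB and -0.05 with DBT. These are descriptions over 9 samples that share depth and scaling within each library.

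Per length, the levels of the members spanned a wide range. As means over the 9 samples, HIBADH stood at 196 and IVD at 96.6 CPM per kb, ahead of BCKDHB at 64.2, DLD at 23.4 and DBT at 21.5 CPM per kb. MCCC1 had 15 and PPM1K 11.7 CPM per kb, and the lowest were BCKDHA at 4.53, MCCC2 at 3.66 and BCKDK at 2.33 CPM per kb. The 2 subunits of E1 thus differed in level, as did those of the carboxylase. IVD and HIBADH made up 57.3% to 68.8% of the summed CPM of the 10 genes. By stage that sum was 834 CPM (virgin), then 1214, 1168, 1295, 1162, 1139 and 878 CPM over gestation in order of day, and 776 and 931 CPM at days 7 and 15 of lactation, so the sample at term was nearer to lactation and virgin than to the rest of gestation.

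Other genes of the pathway, in 9 lists, had 0 calls between lactation and gestation in edgeR, where 0.0592% of all genes tested were called. In the valine and isoleucine list 8 of 9 had a negative fold change (median log2 fold change -0.33), among them HSD17B10, which acts on isoleucine, with -0.25 (SE 0.25), and ECHS1, the short-chain enoyl-CoA hydratase, with -0.18 (SE 0.19). In the list from propionyl-CoA to succinyl-CoA, where valine and isoleucine carbon enters the citric acid cycle, 6 of 7 were negative (median -0.24), with MMUT, the methylmalonyl-CoA mutase, at -0.38 (SE 0.22) and MCEE, the epimerase before it, at -0.34 (SE 0.23). In the later leucine steps 1 of 4 was negative, ACAT1, the mitochondrial thiolase, at -0.45 (SE 0.19), while AUH, the hydratase after the carboxylase, had 0.09 (SE 0.33). The median over all genes tested was -0.01.

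PCCA and ABAT, chosen after their values were seen, stood out in those lists. PCCA, the biotin-carrying subunit of propionyl-CoA carboxylase, had 92.6 and 96.1 CPM at days 7 and 15 of lactation, against 150 to 246 CPM in gestation (log2 fold change -1.05, SE 0.20, edgeR adjusted p = 0.116, DESeq2 adjusted p = 0.000131). Its partner PCCB had -0.15 (SE 0.21). ABAT, a transaminase of GABA that also acts on an amino acid from valine, had 28.9 and 20.6 CPM in lactation, against 61.8 to 310 CPM in gestation (-2.52, SE 0.59, edgeR adjusted p = 0.176, DESeq2 adjusted p = 8.9e-05). For both genes the groups did not overlap.

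At the entry to the pathway the lists had mostly positive fold changes in lactation, where 51% of all genes had a negative one. These counts rest in large part on genes with few reads. Among the positive genes IL4I1 averaged 1.34, SLC7A5 0.573, SLC7A6 0.155, SLC7A8 0.0616 and BCAT1 0.0274 CPM. Among the negative genes SLC7A7 averaged 2.15 and SLC43A2 0.308 CPM. Of the entry list (BCAT1, BCAT2, SLC25A44, SLC16A1 and IL4I1) 4 of 5 were positive, 2 of them the scarce BCAT1 and IL4I1. SLC16A1, a carrier of lactate and other monocarboxylates, had 73.5 and 74.1 CPM in lactation and 28.9 to 60.3 CPM in gestation (0.82, SE 0.23, edgeR adjusted p = 0.261). SLC25A44, the mitochondrial carrier of branched-chain amino acids, had 30.7 and 37.4 CPM in lactation and 21.3 to 32.9 CPM in gestation (0.32, SE 0.18). The aminotransferases themselves were scarce, as BCAT2 had 0.421 to 1.82 CPM and BCAT1 at most 0.16 CPM in any sample. Of the plasma membrane transporters 5 of 7 tested were positive, with SLC3A2, the heavy chain shared by several amino acid transporters, at 0.19 (SE 0.24) and SLC43A1, a carrier of large neutral amino acids, at 0.31 (SE 0.28).

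Of the genes of complexes that share DLD, 6 of 10 were negative, with a median of -0.13. PDHB, of pyruvate dehydrogenase, had -0.05 (SE 0.15), and GCSH, the lipoate protein of glycine cleavage, had -0.51 (SE 0.26). Among the kinases and phosphatases of pyruvate dehydrogenase, the counterparts of BCKDK and PPM1K, 3 of 6 were negative, with PDK2 at 0.02 (SE 0.14). PDK4 had -2.91 (SE 1.04, edgeR adjusted p = 0.406), with 29.1 and 30.9 CPM in lactation against 29.6 to 444 CPM in gestation. Of the cofactor genes 9 of 12 were negative, with ETFB and ETFA, which take electrons from IVD, at -0.38 (SE 0.20) and -0.37 (SE 0.21). At an unadjusted edgeR p under 0.05, however, 2 of the 12 were higher and 0 lower, against 5.01% and 4.39% of all genes. SLC5A6, chosen after its values were seen, had 39.5 and 26.5 CPM in lactation, against 11.7 to 23.6 CPM in gestation (1.08, SE 0.30, edgeR adjusted p = 0.276). Of 4 regulators tied to the pathway in other mammals 3 were negative, with PPARA at -0.28 (SE 0.22), while MLXIPL had 0.44 (SE 0.16).

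**Figure D5:**
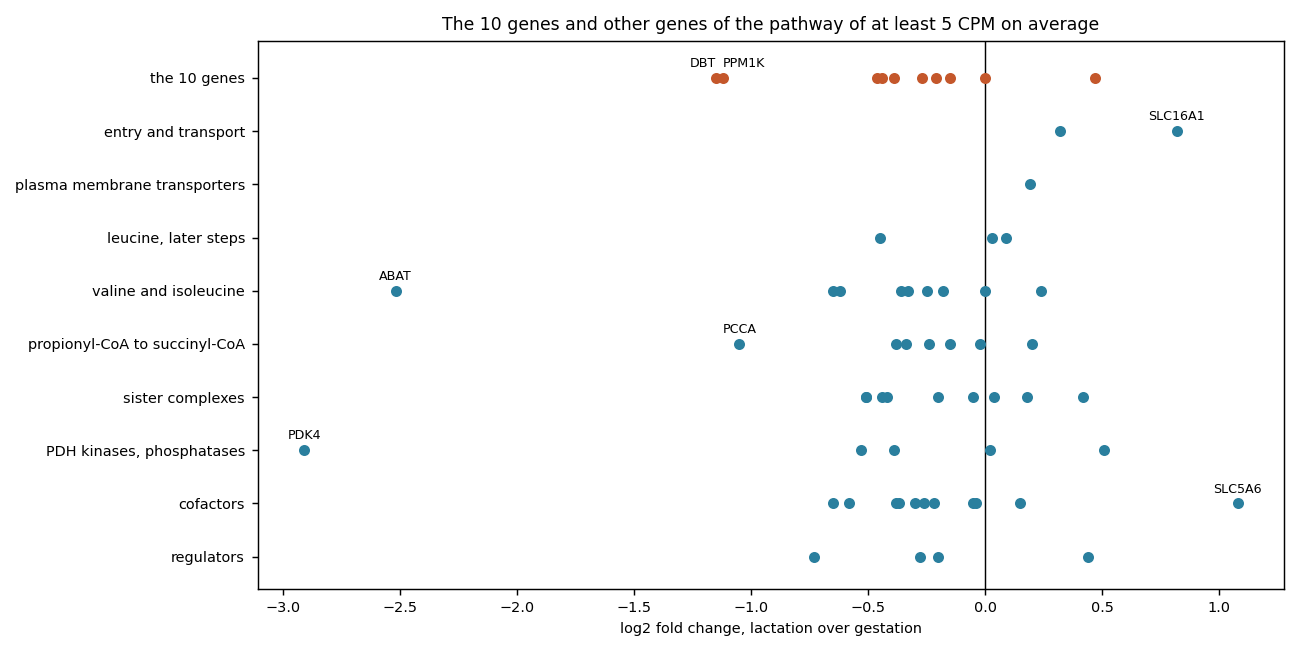
Log2 fold change in lactation over gestation (edgeR) of the 10 genes and of genes in the 9 other lists with at least 5 CPM on average, 1 point per gene, with names for values of at least 0.8 in size. DBT, PPM1K, PCCA, ABAT and PDK4 lie at -1.05 or below, and SLC5A6 (1.08) and SLC16A1 (0.82) are the points named on the other side. None of the points passed the edgeR test over all genes.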

How the data were processed

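The authors deposited raw read counts for each gene in each cell. The tools named (per the submitters' processing notes) are featureCounts 2.0.1, HISAT2 2.1.0 and Trimmomatic 0.39. The build of the genome, the strand setting and the handling of molecular identifiers are not given in the sources used here, so the values are treated as reads. Of 28861 rows, 24 named no gene and held 0.474% of reads, and these were left out. Gene lengths are those the authors deposited in the same table, with the gene model behind them not given. In the RefSeq table of ARS-UI_Ramb_v3.0, used for names and neighbours only, BCKDHA overlaps B3GNT8, which averaged 0.07 CPM, BCKDHB overlaps a pseudogene not used here, MCCC2 overlaps a long noncoding RNA and a protein-coding gene, and HIBADH overlaps a snoRNA. Those of MCCC2 and HIBADH averaged under 1 CPM. A table of normalized values held only missing entries and was not used.

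For each sample the counts of its cells were added up and fitted with edgeR 4.0.16 in R 4.3.3 (filterByExpr, TMM, glmQLFit, glmQLFTest, Benjamini-Hochberg over all genes, threshold 0.05), with a term per phase over the 9 samples, or with the midpoint of the days over the 6 gestation samples. The fits were also run on counts simulated with the spread estimated from these data, which cannot check that spread for the single virgin library. DESeq2 1.42.0, limma 3.58.1, other scalings and filters, and leaving out each sample were alternatives. Cells were thinned to 155164 reads, with the 341 of 3404 shallower cells left out, and correlations across cells used log2(CPM + 1). No cells were filtered, clustered or typed, and doublets were not called since cells were picked singly. Intervals cover counting error only. Python 3.11.15, SciPy 1.17.1 and matplotlib 3.10.9 were used.

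The members, lists and markers were chosen with earlier results of these data known. In the other lists the 2 genes of highest mean CPM are named, and those picked later, with values known, are named as such. BCAT1, BCAT2, PCCB and the entry genes given for their low levels were also picked later.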

Additional observations from a re-analysis of the deposited data

Results flagged for a closer look

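The DBT level at days 140 to 150 of gestation, 51.9 CPM, stood apart from the other 5 gestation samples (70.8 to 81.6 CPM). Its gap to the nearest of them was 0.636 of the range of the 6, above Dixon's 95% critical value for a group of that size. Chance gives such a gap in about 1 in 20 groups, and 10 genes were examined. At term the share of cells with DBT reads was 86% (95% interval 82.4% to 89.2%), and 1.17% of the DBT reads lay in the cell with most of them, without which the level was 51.3 CPM.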

How the results depend on the processing

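Under all 14 alternatives DBT (-1.44 to -0.96, edgeR, DESeq2 or limma adjusted p 0.000101 to 0.365) and PPM1K (-1.27 to -0.92, adjusted p 0.000329 to 0.344) kept a negative log2 fold change in lactation over gestation, passing only in DESeq2. No paired analysis was possible because the labels give no replicate numbers. Genes called between lactation and gestation were 12, with 22 under library size alone, 523 in DESeq2, 21 without a filter, 39 with equal weight per cell (limma), and 1 to 45 with 1 sample left out (45 without day 7 of lactation, 13 without days 140 to 150, 12 without virgin, and 1 or 2 without any of the other 6). Between gestation and virgin 1 was called, with 114, 5 and 88 in DESeq2, without a filter and with equal weight per cell, and 1 to 2 with a sample left out. Between lactation and virgin 0 were called in edgeR (493 lower and 507 higher at an unadjusted p under 0.05), with 96 in DESeq2, 42 with equal weight per cell and 0 to 1 with a sample left out. For the trend 6 were called, with 303, 17 and 2, and 0 to 9 with a sample left out. Some values turned their sign, and none of these was called in any of these fits. In lactation over gestation these were BCKDHA at 0.19 (library size alone), 0.00 (no filter), 0.25 (equal weight per cell) and -0.07 to 0.07 with a sample left out, and MCCC2 at 0.05 (library size alone) and -0.72 to 0.26 with a sample left out. In gestation over virgin they were PPM1K (-0.13 to 0.02 with a sample left out) and BCKDK (-0.24 to 0.01). In lactation over virgin they were BCKDHB at -0.04, MCCC2 at -0.27 and HIBADH at 0.00 (equal weight per cell), and MCCC2 (-0.54 to 0.44) and HIBADH (-0.43 to 0.08) with a sample left out. For the trend they were MCCC2 at -0.11 (equal weight per cell) and, with a sample left out, MCCC2 (-0.54 to 0.43), DLD (-0.27 to 0.04), BCKDK (-0.81 to 0.13) and HIBADH (-1.03 to 0.06, where all samples gave -0.55). The cause was not tested. Depth limits BCKDK most, and 1 sample per stage limits every comparison.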

Other observations

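The genes whose pattern over the 9 samples was most like that of DBT, by the Pearson correlation of log2 CPM among 3710 genes of at least 20 CPM, were CHIA, an acidic chitinase (r = 0.964, Spearman 0.77), PCCA, of propionyl-CoA carboxylase (0.963, Spearman 0.90), and DCXR, the L-xylulose reductase (0.95, Spearman 0.95). PCCA averaged 94.3 CPM in lactation, 196 CPM in gestation and 145 CPM in the virgin sample, and DCXR averaged 103 CPM in lactation, 204 CPM in gestation and 126 CPM in the virgin sample. For BCKDHB they were NAGS, which makes the activator of the urea cycle (0.95), SMARCA2, a chromatin remodeler (0.943), and DSG2, a desmosomal cadherin (0.920). BCKDHA was most like CRAT, the carnitine acetyltransferase (0.887), KMT2C, a histone methyltransferase (0.80), and GALK1, the galactokinase (0.797). These are descriptions over 9 samples, with the most alike picked from all genes searched.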
